A study of Rattus norvegicus with 6 samples.

Results

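Hnf4a RNA was lower in the renal cortex of rats given o-anisidine hydrochloride than in controls on every probe for it, while Pax2, Pax8, Lhx1, Tfcp2l1 and Gata3, transcription factors of other or all nephron segments, overlapped between the groups on every probe. These are 6 of the 7 genes described here, a set of transcription factors that make and maintain the kidney tubule. No probe was matched to the remaining gene, Hnf4g, the close relative of Hnf4a, which was not analysed here. The genes were chosen by name and by probe, from every non-control probe whose accession maps to one of them in the RefSeq gene table, and that choice was made with earlier results of the same comparison known. The 6 genes had 12 probes, out of 61657 non-control probes and 31087 tested genes in the series. Because the differences between the groups were known when the genes were selected on them, they are given for these genes as a description, with no test.

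The animals were male Sprague-Dawley (Crl:CD(SD)) rats bought at 5 weeks of age. The 3 control rats (labelled VC) received water and the 3 treated rats received o-anisidine hydrochloride, an aromatic amine salt, at 700 mg/kg/day, both for 4 weeks. RNA of the renal cortex of each rat was measured on 1 array. The cortex is a mixture of cell types, so that fewer cells of a type and less RNA per cell cannot be told apart in any value below.

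HNF4A is a nuclear receptor that binds DNA as a dimer and activates genes of the liver, gut, pancreas and proximal tubule. In the kidney it is confined to proximal tubule cells, where transport and metabolic genes depend on it. PAX2 and PAX8 are paired-box factors that start the nephron lineage in the embryo and persist in adult tubule, and LHX1 is a LIM homeodomain factor that acts downstream of them. GATA3 acts in the nephric duct and collecting duct, and TFCP2L1 in the distal tubule and collecting duct, where it sets the balance of principal and intercalated cells.

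The Hnf4a gene has a pair of alternative promoters, and adult kidney is known for using the downstream one. Both are shown because all 3 Hnf4a probes carry the same transcript accession and the data do not say which promoter a measured transcript came from. The sequences are RefSeq's, on the GRCr8 assembly, plus strand, from 250 bases before the annotated start and 50 from it onward, and capitals mark the letters GTTAAT, one of the motifs searched for, on either strand.
Hnf4a upstream promoter, chr3:172605970-172606269: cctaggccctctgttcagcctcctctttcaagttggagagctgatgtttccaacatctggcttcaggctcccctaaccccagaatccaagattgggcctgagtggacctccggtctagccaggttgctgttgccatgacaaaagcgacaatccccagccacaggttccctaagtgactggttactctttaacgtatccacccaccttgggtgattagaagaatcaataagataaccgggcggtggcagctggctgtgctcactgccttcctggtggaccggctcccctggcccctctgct
Hnf4a downstream promoter, chr3:172641586-172641885: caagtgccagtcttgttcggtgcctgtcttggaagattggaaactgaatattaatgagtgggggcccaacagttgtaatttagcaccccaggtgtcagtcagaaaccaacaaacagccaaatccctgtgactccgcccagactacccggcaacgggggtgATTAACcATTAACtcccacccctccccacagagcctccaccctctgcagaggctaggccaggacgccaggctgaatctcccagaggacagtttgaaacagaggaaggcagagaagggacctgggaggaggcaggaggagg

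The downstream promoter held these letters 2 times on the minus strand, at -90 to -85 and at -83 to -78 from the annotated start, and the upstream one held none. Among 33469 promoters of the same length, 7.45% held them at least once. The letters CAAAGTCCA and CAAAGGTCA, forms of the site that HNF4 proteins bind, were in 0.391% and 0.424% of promoters, and AGATAAG, letters that the family of GATA3 binds, was in 2.87%. None of these 4 motifs was found in the promoters of Pax2, Pax8, Lhx1, Tfcp2l1 or Gata3, and none but GTTAAT in those of Hnf4a. These matches are letters in a window and show no binding.

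Each array had between 41670 and 43630 probes well above background, and no spot was saturated. Arrays correlated at 0.993 to 0.994 across genes within controls, at 0.992 to 0.993 within treated rats and at 0.990 to 0.992 between the groups. All 3 controls and o-anisidine 3 were on slide 1, and o-anisidine 1 and 2 were on slide 2, so differences are also given within slide 1, where 1 treated array meets 3 controls. With slide as a fixed block the estimate of the difference is the same number. An SE within slide 1 holds no spread among treated rats, since only 1 treated array is in that fit. For some genes it was smaller than the SE with slide as a block. Markers of the proximal tubule were all above background. Of 8 markers of liver or gut epithelium, the other HNF4A tissues, 6 were too dim to be tested, Alb, Apoa1 and Fabp2 among them. The median log2 difference of all 31087 genes was 0.0037.

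Hnf4a differed most on its brightest probe, A_43_P12146. Its log2 signal relative to the array's 75th percentile was 0.57, 0.36 and 0.63 on controls 1, 2 and 3 and -0.04, -0.32 and -0.22 on o-anisidine 1, 2 and 3. All treated values lay below all control values, with a gap of 0.40 between the groups. The means were 0.52 ± 0.14 (SD, n = 3) and -0.19 ± 0.14 (SD, n = 3), a log2 difference of -0.71 (SE 0.11), which puts the treated mean at 61.1% of the control mean. The unscaled processed signal of this probe ran from 1267 to 1529 on controls and from 742 to 937 on treated arrays.

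The other Hnf4a probes were lower in treated rats too, by less. Probe A_64_P046573 read 0.20, 0.00 and 0.32 on the controls and -0.25, -0.30 and -0.47 on the treated arrays, a log2 difference of -0.51 (SE 0.11), or 70.1% of the control mean. Probe A_44_P419188 read -0.30, -0.17 and -0.01 against -0.43, -0.37 and -0.53, a log2 difference of -0.28 (SE 0.10), or 82.4%. The groups were separate on both, but only by 0.25 and 0.06. Control 1 was the lowest control on A_44_P419188 and control 2 the lowest on the other probes, so the probes did not order the control rats alike. Averaged over the 3 probes, the log2 difference was -0.50 (SE 0.09), with treated arrays at -0.42, -0.50 and -0.58 from the control mean and controls between -0.11 and 0.14. Whether the probes differ from each other was not tested.

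**Figure D1:**
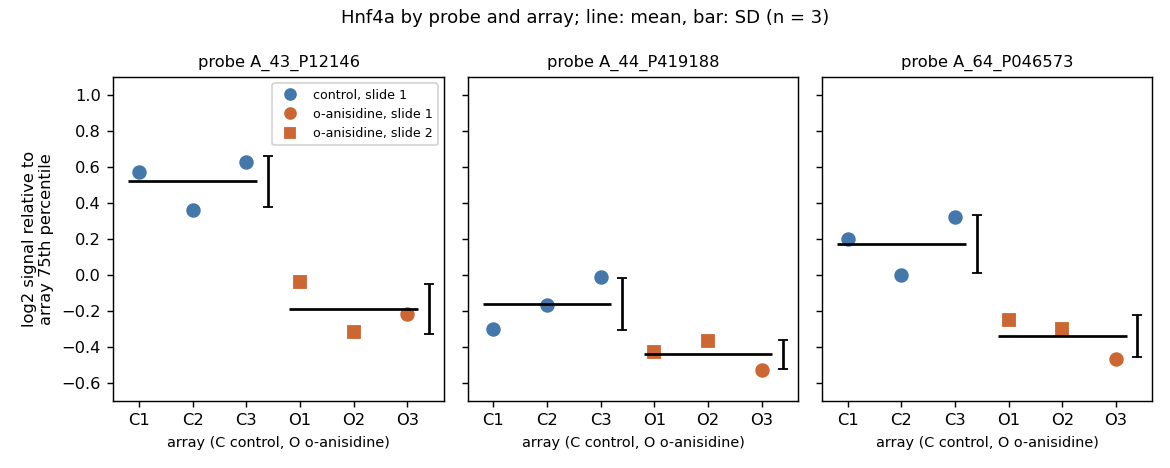
Log2 signal relative to the array's 75th percentile (y axis) of the 3 Hnf4a probes on each of the 6 arrays (x axis). Circles are arrays of slide 1 and squares those of slide 2, lines are group means and bars are SDs (n = 3). On each probe the 3 treated arrays lie below the 3 controls, with the widest gap, 0.40, on A_43_P12146.

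The Hnf4a differences were as large within slide 1, where o-anisidine 3 alone stands for the treated group: -0.74 (SE 0.15) on A_43_P12146, -0.64 (SE 0.16) on A_64_P046573 and -0.37 (SE 0.15) on A_44_P419188. Over 16 alternative settings, leaving out each array included, A_43_P12146 ranged from -0.79 to -0.65, A_64_P046573 from -0.64 to -0.39 and A_44_P419188 from -0.37 to -0.21. In all, 3 of 12 probes of the 6 genes were lower on every treated array than on every control, all 3 of them Hnf4a's, and 0 were higher. Of all 42036 probes kept, 9.6% were lower in this sense. By gene, 1 of 6 was lower and 0 were higher, where 8.88% and 9.55% of all tested genes were. The comparison is the one the genes were chosen on, and nothing is read from these counts.

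Summed markers of the proximal tubule, the home of Hnf4a in the kidney, overlapped between the groups. Over 10 markers the summed linear signal, in units of the array's 75th percentile, ran from 1770 to 1890 on controls and from 1700 to 1950 on treated arrays, with a median log2 difference of 0.03. Lrp2, which encodes the endocytic receptor megalin, was the only marker lower on all treated arrays, at -0.20 (SE 0.10), or -0.38 (SE 0.10) within slide 1. The groups of Lrp2 barely separated, with the highest treated array at 6.47 and the lowest control at 6.48. Aqp1, the water channel, had 0.07 (SE 0.08), or 0.18 (SE 0.10) within slide 1.

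**Figure D2:**
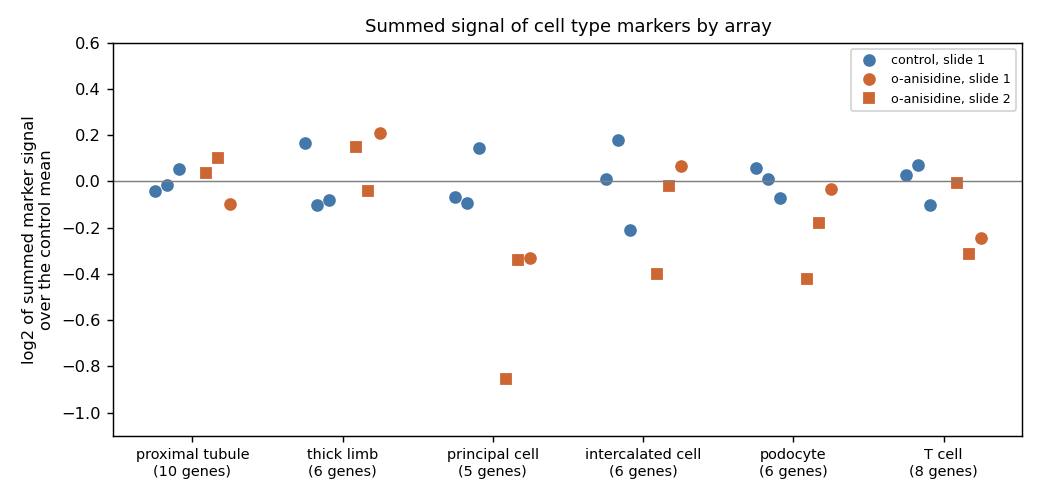
Log2 of the summed marker signal of each array over the mean of the 3 controls (y axis) for 6 cell types (x axis). Sums are of linear signal, in which bright genes weigh most. Circles are arrays of slide 1, squares those of slide 2. Proximal tubule markers overlap between the groups (1770 to 1890 on controls, 1700 to 1950 on treated arrays), and principal cell markers do not (147 to 174 on controls, 86.7 to 125 on treated arrays).

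Proximal tubule genes that HNF4A is known to act on or to be needed for showed small differences in both directions for the most part. Of 24 such genes tested, 14 were above 0 and 10 below, with a median log2 difference of 0.03. None passed an adjusted p of 0.05 (limma, Benjamini-Hochberg over all genes), where 19 of all 31087 genes, or 0.0611%, did. At an unadjusted p under 0.05 stood 1 higher and 2 lower genes, where 6.36% of all genes were higher and 5.14% lower. With trend and robust variance estimation or with normexp background correction the count was also 0, here and in each list below but that of distal genes. On all treated arrays 4 were lower and 1 was higher than on every control, against 8.88% and 9.55% of all genes. Within slide 1 the median was -0.05.

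The lowest value of that list was that of Apoh, a plasma glycoprotein, whose groups overlapped, at -0.67 (SE 0.46). Within slide 1 Apoh had -0.16 (SE 0.27, or 0.64 with slide as a block). Lrp2, Slc47a1 and Slc6a19 were among the 4 genes lower on all treated arrays. Slc47a1, the MATE1 exporter that carries organic cations into the urine, had -0.29 (SE 0.11, adjusted p = 0.396), or -0.13 (SE 0.14) within slide 1. Slc6a19, a neutral amino acid transporter of the brush border, had -0.25 (SE 0.11, adjusted p = 0.445), or -0.37 (SE 0.14) within slide 1. Its groups barely separated too, with the highest treated array at 3.22 and the lowest control at 3.23.

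Other members of the list had overlapping groups. The anion transporter Slc22a6 had a log2 difference of 0.04 (SE 0.13), which was -0.18 (SE 0.12) within slide 1. Fbp1, a fructose bisphosphatase of glucose production, had 0.04 (SE 0.10), which was -0.12 (SE 0.10) within slide 1, so the sign of neither gene held. Pck1, a carboxykinase of glucose production, had 0.16 (SE 0.10), or 0.17 (SE 0.10) within slide 1. G6pc1, which releases free glucose, had 0.52 (SE 0.26), but 0.31 (SE 0.42) within slide 1 and 0.25 without control 1, its lowest array. Ugt2b7, a glucuronosyltransferase from a family of near-identical genes whose transcripts a probe may not tell apart, was the only gene of the list higher on all treated arrays. It read -1.32, -0.18 and -0.80 on the controls and 2.07, 0.90 and 0.58 on the treated arrays, a log2 difference of 1.95 (SE 0.46, adjusted p = 0.220), or 1.346 (SE 0.47) within slide 1. The promoters of Pdzk1 and Slc3a1, whose groups overlapped, were 2 of 21 promoters of the listed genes to hold CAAAGTCCA, while CAAAGGTCA was in 0. GTTAAT was in 7 of the 21, where 7.45% of all promoters held it, and AGATAAG in 1, where 2.87% did. Whether the listed genes differ from all promoters in these letters was not tested.

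**Figure D3:**
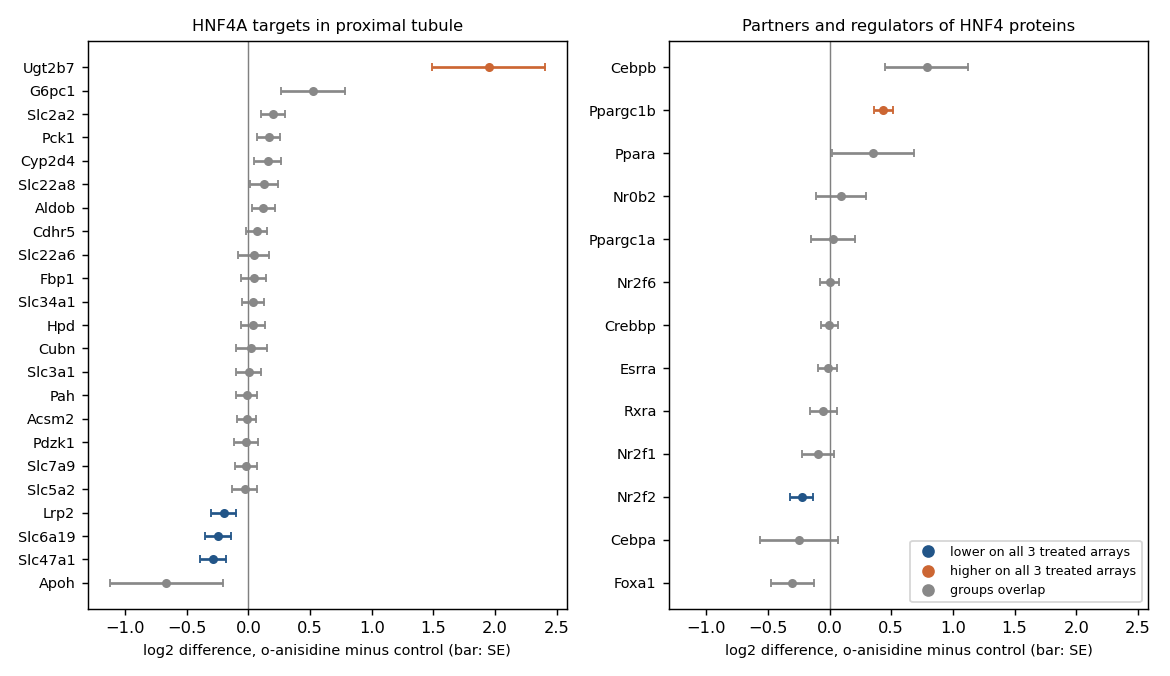
Log2 difference, o-anisidine minus control (x axis), with its SE as a bar, for 23 HNF4A targets of the proximal tubule and 13 partners or regulators of HNF4 proteins (rows, ordered by value). Blue genes are lower and orange genes higher on all 3 treated arrays than on every control; in the left panel 3 genes are lower, with Slc47a1 at -0.29, and 1 is higher, Ugt2b7 at 1.95.

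Among factors that regulate or work with HNF4 proteins, most had overlapping groups. The list had 15 tested genes, 8 above 0 and 7 below, with a median log2 difference of 0.00039, and -0.07 within slide 1. None passed the threshold (limma), against 0.0611% of all genes, while 1 higher and 1 lower gene had an unadjusted p under 0.05, against 6.36% and 5.14% of all genes.

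Ppargc1b, a coactivator of nuclear receptors that promotes mitochondrial genes, read -0.01, 0.10 and 0.19 on the controls and 0.56, 0.55 and 0.50 on the treated arrays. The groups were separate, with a log2 difference of 0.44 (SE 0.08, adjusted p = 0.139, limma), and 0.40 (SE 0.13) within slide 1. Nr2f2, or COUP-TFII, an orphan receptor that can occupy HNF4 sites, was the only partner lower on all treated arrays, at -0.23 (SE 0.09, adjusted p = 0.429), or -0.22 (SE 0.14) within slide 1.

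The genes whose profile over the 6 arrays was most like that of Hnf4a probe A_43_P12146, by Pearson r, had small differences. Traf2, an adaptor of tumour necrosis factor receptors, had r = 0.993 (Spearman's rho 0.943) and a log2 difference of -0.28 (SE 0.08, adjusted p = 0.285, limma). Phyhd1, a dioxygenase, had r = 0.993 (rho 1.00) and -0.15 (SE 0.07). C18h18orf21 followed with r = 0.985, Aplf, a factor of DNA end joining, with 0.984, and Cldn9, a claudin, with 0.981, and their differences were -0.12 (SE 0.06), -0.35 (SE 0.08) and -0.17 (SE 0.07). The 6 points of each profile share the arrays, their slides and the 2 groups. An r of at least 0.95 was found for 45 of 12009 genes with a symbol, and one of -0.95 or less for 49.

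Pax2 and Pax8, the paired-box factors, had treated arrays among or beside the controls. Pax8 had 1 probe, which read 1.95, 2.19 and 2.34 on the controls and 2.29, 2.30 and 2.35 on the treated arrays, a log2 difference of 0.15 (SE 0.11). The treated arrays lay close together at the top of the control range, with an SD of 0.03 against 0.20 in controls, control 1 being the low one. Pax2 probe A_43_P19663 read -0.64, -0.96 and -0.87 against -0.55, -0.62 and -0.89, a log2 difference of 0.14 (SE 0.13). Its dimmer probe A_64_P115457 read -4.06, -4.13 and -4.29 against -4.10, -3.85 and -4.29, a difference of 0.08 (SE 0.13). Within slide 1 both Pax2 probes turned to -0.06 (SE 0.16) and -0.13 (SE 0.14), while Pax8 had 0.18 (SE 0.19).

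Lhx1 had differences near 0 on both probes. Probe A_64_P006285 read 0.55, 0.42 and 0.51 on controls and 0.48, 0.63 and 0.44 on treated arrays, a log2 difference of 0.02 (SE 0.08). Probe A_44_P301679 read -1.33, -1.32 and -1.49 against -1.51, -1.33 and -1.38, a difference of -0.03 (SE 0.09). Within slide 1 the differences were -0.05 (SE 0.11) and 0.0014 (SE 0.12). Neither probe placed the treated arrays to one side of the controls.

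Genes linked to PAX2 and PAX8 in the nephron had overlapping groups. Of 11 tested, 0 were higher and 0 lower on all treated arrays, where 9.55% and 8.88% of all genes were. The median log2 difference was -0.0022, and within slide 1 it was -0.05. None passed the threshold (limma), with 1 higher and 0 lower at an unadjusted p under 0.05, against 6.36% and 5.14% of all genes. Gfra1, a coreceptor for the growth factor GDNF, had 0.55 (SE 0.19, adjusted p = 0.371), but 0.26 (SE 0.25) within slide 1. Ret, its signalling partner, and Fgf8 were too dim to be tested.

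**Figure D4:**
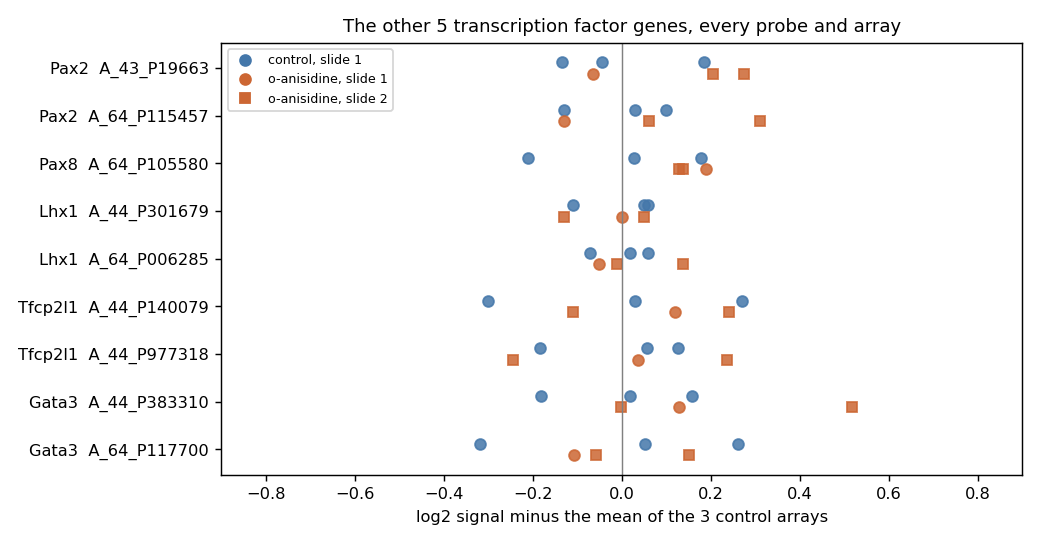
Log2 signal of each array minus the mean of the 3 controls (x axis) for the 9 probes of Pax2, Pax8, Lhx1, Tfcp2l1 and Gata3 (rows). Circles are arrays of slide 1 and squares those of slide 2. On every probe the treated arrays overlap the controls; differences of the group means run from -0.03 for Lhx1 probe A_44_P301679 to 0.21 for Gata3 probe A_44_P383310.

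Tfcp2l1 and Gata3, the distal and collecting duct factors, also overlapped between groups. Tfcp2l1 probe A_44_P977318 read 5.59, 5.52 and 5.28 on controls and 5.22, 5.70 and 5.50 on treated arrays, a log2 difference of 0.01 (SE 0.15). Its dimmer probe A_44_P140079 read -2.46, -2.22 and -2.79 against -2.60, -2.25 and -2.37, a difference of 0.09 (SE 0.17). Within slide 1 they had 0.04 (SE 0.16) and 0.12 (SE 0.25).

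Gata3 probe A_64_P117700 read -0.01, -0.22 and -0.59 on controls and -0.33, -0.12 and -0.38 on treated arrays, a log2 difference of -0.0022 (SE 0.17). Probe A_44_P383310 read -1.83, -2.17 and -1.97 against -1.99, -1.47 and -1.86, a difference of 0.21 (SE 0.16), with o-anisidine 2 the highest array. Within slide 1 the differences were -0.10 (SE 0.26) and 0.13 (SE 0.17). T cells also express Gata3. All 8 tested T cell markers were below 0, with a median of -0.31, and their summed signal ran from 2.19 to 2.46 on controls and from 1.89 to 2.34 on treated arrays. The part of T cells in the Gata3 values was not tested.

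Transport and duct genes of the distal cells in which GATA3 and TFCP2L1 act differed in either direction. Of 26 tested genes, 5 were lower and 3 higher on all treated arrays, against 8.88% and 9.55% of all genes. The median log2 difference was -0.09, or 0.03 within slide 1. None passed the threshold (limma), while 7 lower and 2 higher had an unadjusted p under 0.05, against 5.14% and 6.36% of all genes. When eBayes was run with trend and robust options, 2 passed, Krt19 and Scnn1b, and with background correction by normexp 1 passed, Krt19. Scnn1b, a subunit of the epithelial sodium channel, had -0.55 (SE 0.07, adjusted p = 0.101), or -0.50 (SE 0.11) within slide 1. Aqp2, the water channel set by vasopressin, read 6.63, 6.60 and 6.86 on controls and 5.62, 6.37 and 6.37 on treated arrays, a difference of -0.58 (SE 0.22, adjusted p = 0.412).

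Avpr2, the vasopressin receptor, had -0.78 (SE 0.22, adjusted p = 0.300, limma) on its brighter probe and -0.76 (SE 0.23) on its other one. Within slide 1 the brighter probe had -1.14 (SE 0.13, or 0.255 with slide as a block). Aqp2 had -0.33 within slide 1 (SE 0.15, or 0.30 with slide as a block). Its dimmer probe had overlapping groups at -0.22 (SE 0.13). Summed principal cell markers (5 genes, all below 0) ran from 86.7 to 125 on treated arrays, under the 147 to 174 of controls, and o-anisidine 1 was lowest. The sum is of linear signal, so the brightest gene weighs most. That was Aqp2, with a control mean of 6.7 against 4.85 for Aqp3, the next. By gene the median log2 difference was -0.55, and 3 of the 5 were lower on all treated arrays. Intercalated cell markers overlapped, at 144 to 189 on controls and 126 to 175 on treated arrays. Jag1, a Notch ligand that TFCP2L1 is known to regulate, had -0.30 (SE 0.10, adjusted p = 0.371), or -0.19 (SE 0.13) within slide 1.

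Krt19, a keratin of duct epithelium, read -2.86, -3.39 and -2.83 on controls and 0.52, -0.22 and -0.75 on treated arrays. Its log2 difference was 2.88 (SE 0.34, adjusted p = 0.0894, limma). Within slide 1 the difference was 2.28 (SE 0.27, or 0.365 with slide as a block). Krt8, another keratin of simple epithelium, had 0.19 (SE 0.10, adjusted p = 0.497), or 0.18 (SE 0.16) within slide 1.

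Other transcription factors of the developing or adult nephron had, for the most part, overlapping groups. Of 34 tested, 4 were lower and 1 higher on all treated arrays, against 8.88% and 9.55% of all genes, with a median log2 difference of -0.06, or 0.04 within slide 1. None passed the threshold (limma), with 3 lower and 1 higher at an unadjusted p under 0.05, against 5.14% and 6.36% of all genes. Zeb2, a repressor of glomerular and mesenchymal cells, had -0.54 (SE 0.13, adjusted p = 0.229) and -0.81 (SE 0.12) within slide 1. Tcf21, a factor of podocytes and stroma, had -0.44 (SE 0.16, adjusted p = 0.396) and -0.60 (SE 0.24) within slide 1, with overlapping groups on its other probe, at -0.35 (SE 0.18). Foxc2, a forkhead factor of podocytes, was lower on all treated arrays too, at -0.16 (SE 0.09), or -0.12 (SE 0.10) within slide 1. Hoxb7, a homeobox gene of the collecting duct lineage, had 0.10 (SE 0.07, adjusted p = 0.588) and 0.06 (SE 0.10) within slide 1, and with normexp this turned to -0.00032. The groups overlapped on its other probe, at 0.09 (SE 0.09).

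Podocyte markers lay beside these glomerular factors: all 6 were below 0, and their summed signal ran from 38.8 to 42.5 on controls and from 30.5 to 39.9 on treated arrays. Tfap2b, a factor of the distal tubule, had overlapping groups at -0.20 (SE 0.16), or -0.19 (SE 0.25) within slide 1.

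Of 14 tested genes of dividing or injured tubule, 11 were above 0. On all treated arrays 5 were higher and 1 was lower, against 9.55% and 8.88% of all genes. The median log2 difference was 0.27, or 0.86 within slide 1. By array the median shift of these genes from their control means was 0.41, -0.0061 and 0.86 on o-anisidine 1, 2 and 3. Their summed signal overlapped, from 82.3 to 93.9 on controls and from 90.2 to 202 on treated arrays. None passed the threshold (limma), with 4 higher and 1 lower at an unadjusted p under 0.05, against 6.36% and 5.14% of all genes. Cdk1, the kinase that starts mitosis, had 1.505 (SE 0.22, adjusted p = 0.108, limma). Within slide 1 it had 1.81 (SE 0.21, or 0.28 with slide as a block). Spp1, osteopontin, had 1.82 (SE 0.77, adjusted p = 0.440), or 2.08 within slide 1, where the SE with slide as a block was 1.18. On o-anisidine 2 it read 3.16, just above the highest control at 3.15. Vcam1, an adhesion molecule, had -0.56 (SE 0.16, adjusted p = 0.292), or -0.63 (SE 0.26) within slide 1. Cdk1 read 2.01, 1.45 and 2.19 on o-anisidine 1, 2 and 3. On the same arrays the mean of the Hnf4a probes lay at -0.42, -0.50 and -0.58 from the control mean. The part of dividing cells in the Hnf4a values was not tested.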

How the data were processed

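Intensity values of 1-colour Cy3 arrays were read by Agilent Feature Extraction 10.7.1.1, per the file headers, on a design annotated on rn4. The submitters' processing notes name version 10.7. The processed intensity is, per the file headers, background-subtracted and detrended. Values were log2 of it minus the array's 75th percentile over 61657 non-control probes. A probe was kept if no array flagged it as an outlier (16 were flagged) and a whole group measured it above background, which gave 42036 probes, the 12 described here among them. Accessions were matched to RefSeq's GRCr8 table (27460 probes), and a gene was its brightest kept probe (31087 genes).

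Groups were compared with limma 3.58.1 in R 4.3.3 (two-sided, no covariate, Benjamini-Hochberg over all genes, threshold 0.05), with SEs of the described genes from the fit over all kept probes. The code was tested on simulated data. The labels' replicate numbers did not pair the rats, since deviations of same-numbered arrays correlated at 0.01 to 0.08. The authors' table holds scaled intensity whose columns match scanner files of another replicate of the same group.

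The genes and lists were chosen with earlier results of these data known. Named list genes were those past the threshold and, of genes whose groups did not overlap, the 2 highest and 2 lowest log2 differences per list. The other list genes named were chosen after their values were seen. The 5 genes most like Hnf4a were taken by Pearson r. Some genes of the lists are counted in them but not reported here by name.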

Additional observations from a re-analysis of the deposited data

How the results depend on the processing

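All 3 Hnf4a probes kept their sign in all 16 alternatives and moved by less than the replicate SD. The other probes moved by less too, except both Pax2 probes within slide 1 or with slide as a block. Those with differences near 0 changed sign in up to 5 alternatives. For a single probe not all 16 are separate checks. The filters, the replicate block and trend and robust estimation cannot change its difference, and the slide settings share the same number. Counts of genes called, 11 higher and 8 lower, were less stable. They were 44 and 15 with normexp, 91 and 29 with trend and robust estimation, 5 and 6 with no filter on dim probes, 9 and 5 with all 6 arrays above background, 2 and 1 with slide as a block, 1 and 1 within slide 1, and between 2 and 16 higher and 1 and 5 lower with an array left out. With the replicate number as a block they were 1 and 0, and 3 of 6 arrays correlated best with their own number. In the distal list 1 gene was called with normexp and 2 with trend and robust estimation. Of 459 values of 27 named list genes, 14 reversed. Hoxb7 had -0.00032 and Pck1 -0.011 with normexp. Fbp1 had -0.18 with normexp, -0.098 with quantile normalization and -0.12 within slide 1 or with slide as a block, and from -0.041 to 0.12 with an array left out. Slc22a6 had -0.042, -0.11 and -0.18 in these settings, -0.037 with probes averaged, and from -0.058 to 0.16 with an array left out. Over all list genes, 60 of 98 whose groups overlapped changed sign in at least 1 of 17 alternatives, and 1 of the 26 others did. The causes were not tested. With 3 arrays a group, small differences were not resolved.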
